A study of Homo sapiens with 11 samples.

Results

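VEGFA, stanniocalcin 2 (STC2), stanniocalcin 1 (STC1), adrenomedullin (ADM), ANGPTL4 and DDIT4 are genes that many cells switch on under low oxygen, and all but DDIT4 encode secreted proteins. They were followed in SCC9 cells through every probe set (the group of array probes that reads a transcript) that maps to 1 of these symbols alone. Of the 6 genes, 5 had such a probe set, 11 probe sets in all of the 16383 in the values table. VEGFA had 4, STC1 had 3, STC2 had 2, and ADM and DDIT4 had 1 each, while ANGPTL4 had 0 and was left out. The genes were chosen from the nimesulide contrasts of these same arrays, in which probe sets of VEGFA and STC2 stood high, so the contrasts that add nimesulide to cells are a description for these genes, and any call in them restates the choice. The effect of cisplatin, alone or on top of nimesulide, and the interaction of the agents were not themselves used for that choice and are tested. They share arrays with the contrasts that were. The interaction is the difference between nimesulide contrasts, and the combination against nimesulide subtracts the same nimesulide arrays. For VEGFA and STC2 these tests are therefore not independent of the choice.

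SCC9 is an established human tongue squamous carcinoma line, which the labels also spell SSC9. The combination group (2 arrays, replicates A and B) received 100 µmol/L nimesulide and 0.5 µmol/L cisplatin, the nimesulide group (3 arrays, A to C) 100 µmol/L nimesulide alone, the cisplatin group (3 arrays, A to C) 0.5 µmol/L cisplatin alone, and the control group (3 arrays, A to C) neither agent. All dishes shared the same line, serum-containing medium and an atmosphere of 5% CO2, and the labels used here mention no low-oxygen arm and no length of treatment. Nimesulide inhibits mainly cyclooxygenase-2, the inducible enzyme of prostaglandin synthesis, and cisplatin crosslinks DNA. The values used here include no combination array of replicate C.

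Under low oxygen the hypoxia-inducible factors (HIF), pairs of an oxygen-regulated alpha subunit and ARNT, escape degradation and bind short DNA elements near their target genes. VEGFA, ADM, ANGPTL4 and DDIT4 are classical targets, and the secreted products act on vessels, on lipoprotein lipase or on growth factor proteases. Several of these genes have a further input: ATF4, the transcription factor of the amino acid and endoplasmic reticulum stress response, is known to induce VEGFA, STC2 and DDIT4.

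The 250 bases before the start of STC2, ADM and DDIT4 are shown because they hold the letters of the element through which HIF is known to act, and because these are the promoters of measured genes in the table used. They are taken from RefSeq on GRCh38.p14 and run 5′ to 3′ on the gene's strand. Capitals mark ACGTG or GCGTG on either strand, the core of that element.
STC2, chr5:173328415-173328664, - strand: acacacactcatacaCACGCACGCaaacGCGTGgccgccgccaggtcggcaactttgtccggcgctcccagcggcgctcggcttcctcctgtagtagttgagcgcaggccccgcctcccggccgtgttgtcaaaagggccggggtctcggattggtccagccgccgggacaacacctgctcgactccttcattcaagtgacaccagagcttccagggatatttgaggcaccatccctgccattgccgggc
ADM, chr11:10304823-10305072, + strand: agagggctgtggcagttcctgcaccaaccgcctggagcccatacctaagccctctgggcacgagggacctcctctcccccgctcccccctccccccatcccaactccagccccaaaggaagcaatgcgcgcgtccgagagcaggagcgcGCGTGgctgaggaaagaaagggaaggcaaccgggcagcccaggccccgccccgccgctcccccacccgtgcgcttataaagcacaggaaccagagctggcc
DDIT4, chr10:72273674-72273923, + strand: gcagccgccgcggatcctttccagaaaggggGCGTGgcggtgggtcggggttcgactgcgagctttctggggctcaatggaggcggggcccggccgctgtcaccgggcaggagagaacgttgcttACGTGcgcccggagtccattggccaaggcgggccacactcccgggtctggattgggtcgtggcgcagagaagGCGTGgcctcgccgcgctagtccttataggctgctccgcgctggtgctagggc

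The STC2 window held GCGTG 3 times, once on the gene's strand and 2 times on the opposite strand, where the 2 matches overlap by 1 base. ADM held GCGTG 1 time. DDIT4 held ACGTG 1 time and GCGTG 2 times. Among 35116 promoter windows of the same 250 bases, 18.5% held ACGTG, 32.2% held GCGTG and 43.2% held either, so such a match is common. The ATF4-type motif TGATGNAA, searched on both strands, was in none of the 3 windows and in 3.14% of all windows. Of the 6 genes, 4 were matched in the promoter table: STC2, ADM, DDIT4 and ANGPTL4. VEGFA and STC1 were not matched.

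The arrays were alike in scale. Log2 values, normalised by the authors with RMA, ran between 2.53 and 13.4 over all probe sets, array medians lay between 5.37 and 5.43, and arrays of 1 treatment correlated at 0.996 to 0.998 (10 pairs, across probe sets). As a check of the label, the mean level over the arrays was 7.90 to 8.36 for 8 measured squamous epithelial markers, 3.84 to 4.002 for 7 endothelial, 4.45 to 4.54 for 8 fibroblast and 4.75 to 4.84 for 6 leukocyte markers. Nimesulide minus control had medians of -0.06, 0.03, -0.04 and 0.03 over these lists in the same order. Among the squamous markers the keratins KRT14 and KRT16 differed by -0.36 and -0.20 and the desmosome genes DSG3 and DSP by 0.25 and 0.20. The endothelial genes VWF, TEK, PECAM1 and ERG differed by 0.11, 0.07, -0.10 and -0.07, the fibroblast genes PDGFRA, DCN, LUM and COL1A1 by 0.13, 0.05, -0.07 and -0.07, and the leukocyte genes ITGAM, CD53 and CD14 by 0.15, 0.06 and -0.03. The values carry no detection calls, so whether a low probe set lay above background is not known. The brightness of a probe set also depends on its probes, which limits that check of levels between lists. These are bulk cultures, in which fewer cells expressing a gene and less RNA per cell cannot be told apart.

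VEGFA, the main growth factor for blood vessels, was higher with nimesulide than in controls in 2 of its 4 probe sets, and by the larger margin in the first. In probe set 210512_s_at the log2 values were 5.93 and 5.83 with the combination, 5.66, 5.54 and 5.82 with nimesulide, 5.51, 5.22 and 5.48 with cisplatin and 5.31, 5.16 and 5.31 in controls. Both combination arrays and all 3 nimesulide arrays lay above every control array and every cisplatin array. Among these separations the nimesulide and cisplatin arrays came closest, and the lowest nimesulide and highest cisplatin array were 5.54 and 5.51.

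On average this probe set stood at 5.88 ± 0.07 with the combination (SD, n = 2), 5.67 ± 0.14 with nimesulide, 5.41 ± 0.16 with cisplatin and 5.26 ± 0.09 in controls (SD, n = 3 each). The order was therefore combination, nimesulide, cisplatin, control, and the neighbours cisplatin and control overlapped. Nimesulide minus control was 0.41 (standard error, SE, 0.09), a 1.33-fold ratio, with 0.34, 0.39 and 0.50 in letters A, B and C. The combination minus cisplatin was 0.47 (SE 0.10), with 0.41 and 0.60 in letters A and B, and the combination minus control was 0.61 (SE 0.10).

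The second probe set, 210513_s_at, showed a smaller difference of the same sign. Its log2 values were 6.33 and 6.06 with the combination, 6.16, 6.19 and 6.15 with nimesulide, 6.08, 5.93 and 6.06 with cisplatin and 6.08, 5.80 and 5.85 in controls. All nimesulide arrays lay above all control arrays, the closest pair being 6.15 with nimesulide and 6.08 in controls, while the combination overlapped every other treatment. Nimesulide minus control was 0.25 (SE 0.09), with 0.08, 0.39 and 0.30 in letters A, B and C.

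The remaining VEGFA probe sets did not separate nimesulide from control. Among them is 212171_x_at, which had the highest mean of the VEGFA probe sets over all arrays, 6.68 against 5.52 for 210512_s_at. Genes of the lists further on are read by their probe set of highest mean, and by that rule VEGFA would be read by 212171_x_at. Probe set 212171_x_at had log2 values of 6.85 and 6.71 with the combination, 6.69, 6.70 and 6.66 with nimesulide, 6.61, 6.68 and 6.68 with cisplatin and 6.72, 6.64 and 6.50 in controls, and nimesulide minus control was 0.06 (SE 0.07). Its combination arrays lay above all cisplatin arrays and all nimesulide arrays, but the lower of them lay below control A. Probe set 211527_x_at had log2 values of 4.86 and 4.54 with the combination, 4.70, 4.63 and 4.87 with nimesulide, 4.71, 4.55 and 4.61 with cisplatin and 4.72, 4.70 and 4.79 in controls, and nimesulide minus control was 0.00 (SE 0.09), with 1 of 3 letters above 0.

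The plot of the VEGFA probe sets shows the contrast between them.

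**Figure D1:**
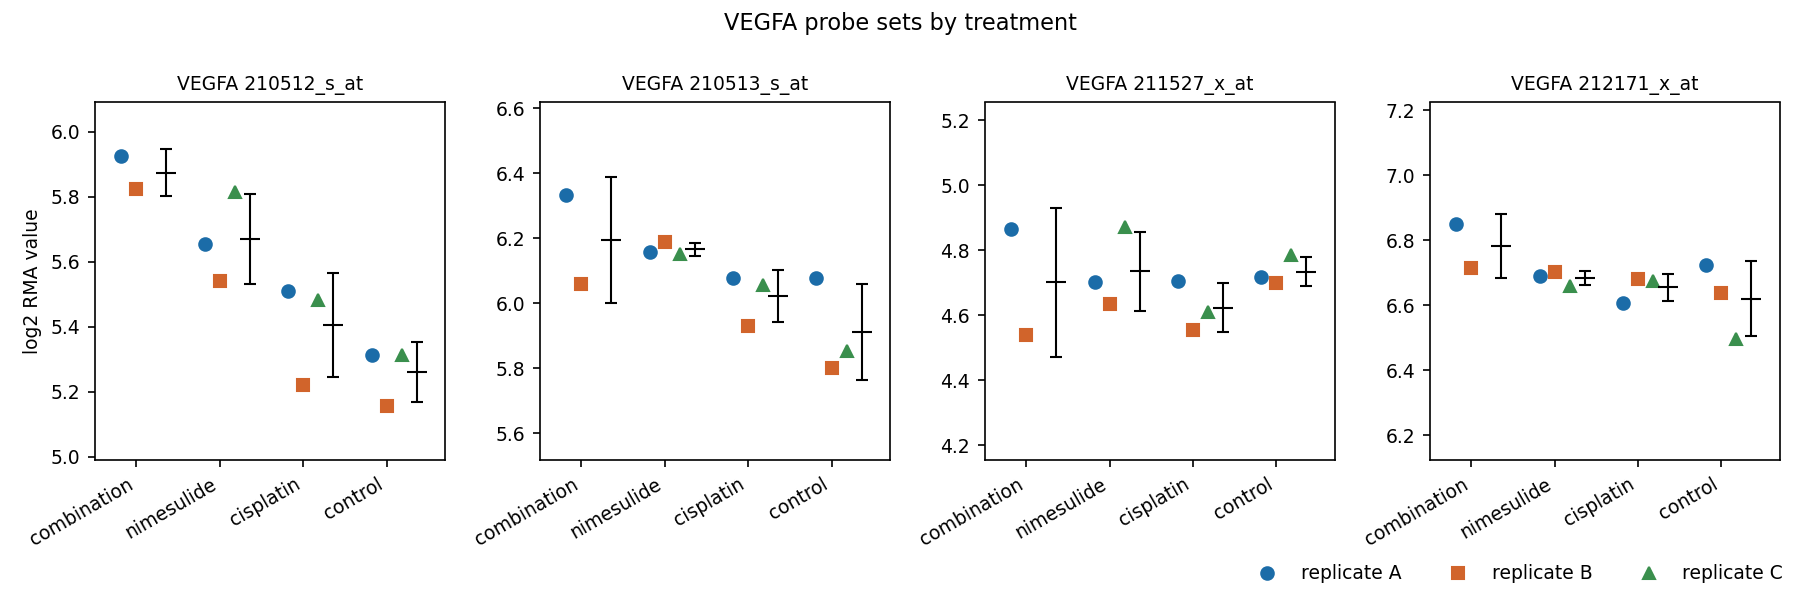
Log2 RMA values of the 4 VEGFA probe sets on each array, by treatment, with replicate letters as symbols and the mean ± SD of each treatment beside them. In 210512_s_at the combination and nimesulide arrays sit above all cisplatin and control arrays, whereas in 211527_x_at the treatments overlap.

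The VEGFA probe sets differed from each other in the size of the nimesulide difference. The nimesulide difference of 210512_s_at exceeded that of 212171_x_at by 0.35 on average, and by 0.38, 0.32 and 0.34 in letters A, B and C. It exceeded that of 211527_x_at by 0.41, and by 0.36, 0.45 and 0.42 in the letters. Against 210513_s_at the excess was 0.16 on average and absent in letter B. Over the 11 arrays, 210512_s_at correlated with 210513_s_at at r = 0.815, with 212171_x_at at 0.538 and with 211527_x_at at 0.319, while 211527_x_at and 212171_x_at correlated at 0.0269. These correlations share the arrays and their normalisation and are a description. Which VEGFA transcripts each probe set reads was not analysed here. The suffix _x_at of 211527_x_at and 212171_x_at marks, in the array maker's naming, probes that may also match other transcripts.

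The genes most like each VEGFA probe set over the 11 arrays were found by Pearson correlation, given here with no test. For 210512_s_at they were ASNS (0.957), SHMT2 (0.941), SLC7A11 (0.927), ATP2C2 (0.910) and TOMM20 (0.909). ASNS makes asparagine, SHMT2 is the mitochondrial serine hydroxymethyltransferase and SLC7A11 is the cystine importer, and all 3 belong to the ATF4 target list described further on. For 210513_s_at they were GARS1 (0.907), CEBPG (0.901), DYNC2LI1 (0.899), CSTA (0.882) and PXDC1 (0.881). Of these, GARS1, glycyl-tRNA synthetase, and CEBPG, a bZIP factor, are on the same list. Treatment differences were left in, so a probe set that was higher with nimesulide can match other such genes for that reason alone. The ATF4 target list was also drawn up with earlier results of these arrays known. These overlaps are therefore a description, and a link to ATF4 was not tested. The other probe sets had other neighbours: ABLIM1 (0.930), RBM5 (0.890), ITCH (0.878), EIF5 (0.872) and PDLIM5 (0.864) for 212171_x_at, and CBFA2T2 (0.910), PHF3 (0.897), TCF4 (0.880), IQSEC1 (0.870) and BGN (0.867) for 211527_x_at.

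STC2, a secreted glycoprotein that inhibits the protease PAPP-A, was higher with nimesulide in its first probe set. In 203438_at the log2 values were 7.02 and 7.06 with the combination, 6.91, 7.33 and 7.27 with nimesulide, 6.80, 6.71 and 6.67 with cisplatin and 6.50, 6.83 and 6.49 in controls. Every nimesulide and every combination array lay above every control and every cisplatin array, and nimesulide B and C were the highest. The means were 7.04 ± 0.03 with the combination (SD, n = 2), 7.17 ± 0.23 with nimesulide, 6.73 ± 0.07 with cisplatin and 6.60 ± 0.19 in controls (SD, n = 3 each). Nimesulide and the combination overlapped, as did cisplatin and control.

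Nimesulide minus control in 203438_at was 0.57 (SE 0.11), a 1.48-fold ratio, with 0.41, 0.51 and 0.78 in letters A, B and C. The combination minus cisplatin was 0.32 (SE 0.12), with 0.22 and 0.35 in letters A and B. In contrast to VEGFA 210512_s_at, the mean with the combination was not above that with nimesulide alone.

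The second STC2 probe set, 203439_s_at, had log2 values of 6.93 and 6.81 with the combination, 6.90, 7.12 and 6.78 with nimesulide, 6.79, 6.57 and 6.68 with cisplatin and 6.55, 6.79 and 6.75 in controls. Its nimesulide and control arrays overlapped, and nimesulide C at 6.78 lay below control B at 6.79. Nimesulide minus control was 0.23 (SE 0.10), with 0.34, 0.33 and 0.02 in letters A, B and C. The STC2 probe sets correlated at r = 0.746 over the 11 arrays, and they disagreed most in letter C, where the nimesulide differences were 0.78 and 0.02.

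The genes most like 203438_at were NACC2 (0.914), PPP3CB (0.911), TSC22D1 (0.902), SPRR1B (0.901) and SLC25A36 (0.896). Those most like 203439_s_at were NRF1 (0.911), GRK6 (0.875), LSM14A (0.869), GRSF1 (0.864) and JAG1 (0.856). The lists for the STC2 probe sets share no gene. As for VEGFA, these genes were picked for their high r with treatment differences left in, and they are a description.

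STC1, the paralogue of STC2, showed no common direction over its 3 probe sets. In 204595_s_at the log2 values were 4.51 and 4.86 with the combination, 4.83, 4.94 and 4.85 with nimesulide, 4.88, 4.88 and 4.95 with cisplatin and 4.93, 4.80 and 5.20 in controls, and nimesulide minus control was -0.11 (SE 0.10). Both combination arrays of 204595_s_at lay below all cisplatin arrays, the closest pair being 4.86 with the combination and 4.88 with cisplatin. In 204596_s_at the log2 values ranged over 4.38 to 4.43 with nimesulide and 4.25 to 4.38 in controls, a mean difference of 0.07.

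In 204597_x_at the nimesulide arrays had 4.30, 4.65 and 4.57 and the controls 4.63, 4.81 and 4.45, a mean difference of -0.13. The STC1 probe sets did not follow each other over the arrays, with r of 0.294, -0.406 and -0.233 for the 3 pairs.

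ADM, a vasodilator peptide hormone, was not higher with nimesulide. Its probe set 202912_at had log2 values of 7.56 and 7.58 with the combination, 7.56, 7.23 and 7.72 with nimesulide, 7.58, 7.42 and 7.78 with cisplatin and 7.65, 7.61 and 7.73 in controls. Nimesulide B was the lowest array of all, and the nimesulide arrays overlapped the controls, with a difference of -0.16 (SE 0.11), which was -0.02 without nimesulide B. Both combination arrays lay below all 3 controls, the closest pair being 7.58 with the combination and 7.61 in controls, and the mean difference was -0.09 (SE 0.12).

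DDIT4, an intracellular stress protein that restrains the growth kinase complex mTORC1, had a higher mean with nimesulide than in controls. Its probe set 202887_s_at had log2 values of 7.59 and 7.84 with the combination, 7.68, 7.49 and 7.68 with nimesulide, 7.57, 7.31 and 7.64 with cisplatin and 7.53, 7.37 and 7.54 in controls. Nimesulide and control overlapped, and the difference was 0.14 (SE 0.10), with 0.16, 0.12 and 0.14 in letters A, B and C. The combination minus cisplatin was 0.21 (SE 0.11), but 0.02 and 0.53 in letters A and B, so letter B carried most of it. The combination arrays lay above all controls, and the mean difference was 0.24 (SE 0.11).

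**Figure D2:**
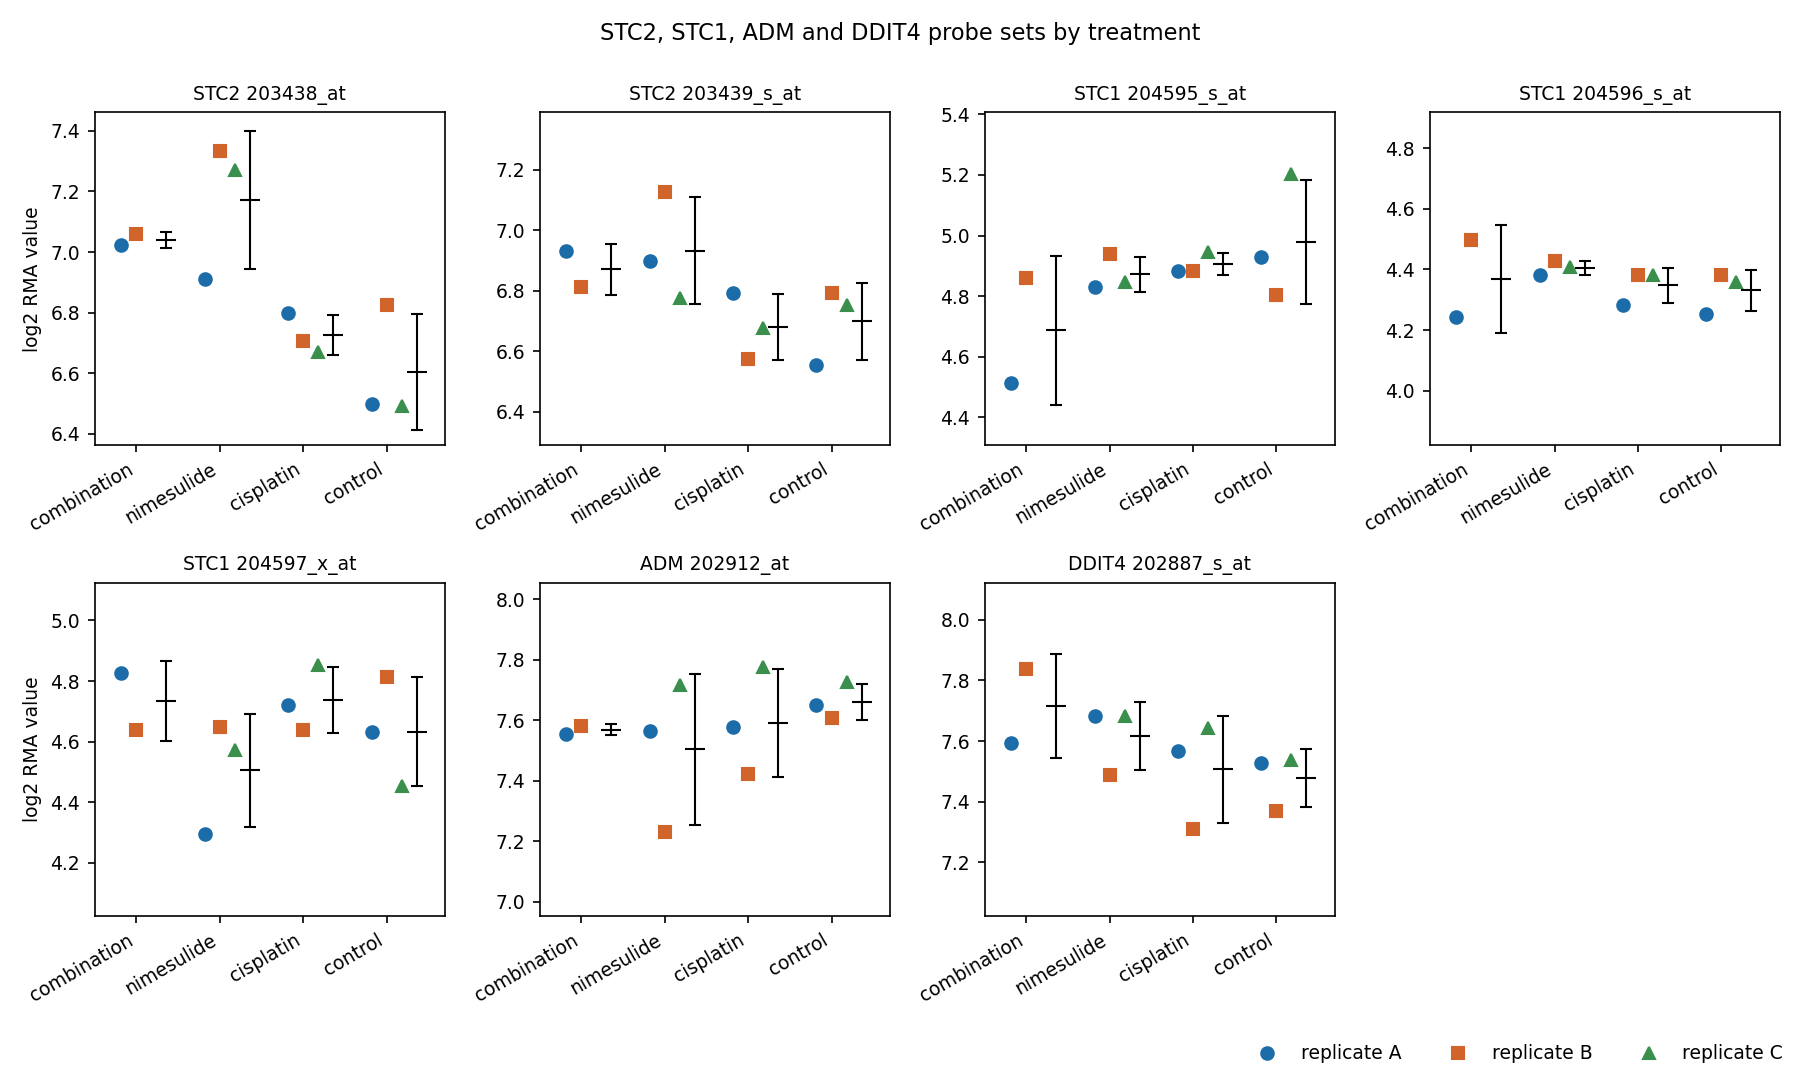
Log2 RMA values of the STC2, STC1, ADM and DDIT4 probe sets on each array, by treatment, with replicate letters as symbols and the mean ± SD of each treatment beside them. STC2 203438_at is the panel in which the combination and nimesulide arrays stand clear of all cisplatin and control arrays.

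Counted over the 11 probe sets, all nimesulide arrays lay above all controls in 3 (VEGFA 210512_s_at and 210513_s_at, STC2 203438_at), against 4.88% of all probe sets. None had all nimesulide arrays below all controls, against 4.91%. All combination arrays lay above all cisplatin arrays in 4 (VEGFA 210512_s_at and 212171_x_at, both STC2 probe sets), against 10.7% of all, and below them in 1 (STC1 204595_s_at), against 9.73%. All combination arrays lay above all controls in 4 (VEGFA 210512_s_at, both STC2 probe sets, DDIT4), against 9.42% of all, and below them in 1 (ADM), against 13.7%. These counts rest on the contrasts that chose the genes and are a description.

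The size of these differences was set against the spread between arrays in limma's fit over all 16383 probe sets, with Benjamini-Hochberg adjustment and a threshold of 0.05. A probe set is called where its adjusted p is under that threshold. None of the 11 was called in nimesulide against control, where 0.0061% of all probe sets were (1 probe set), nor in the combination against cisplatin or against control, where 0.0% were. The replicate letters were taken to pair the control arrays with those of each single agent. With the letter as a block 0.226% of all probe sets were called in nimesulide against control, VEGFA 210512_s_at and STC2 203438_at among them. With the same block 0.226% were called in the combination against cisplatin and 0.201% in the combination against control, and VEGFA 210512_s_at was among both. Counting only probe sets that were higher, the called share with the block was 0.0488% in nimesulide against control, 0.0488% in the combination against cisplatin and 0.0549% in the combination against control.

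These are the contrasts from which the genes were chosen, so nothing is read from the calls of VEGFA and STC2 in them. Each of those calls was also lost when the arrays of at least 1 of the letters were left out.

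Cisplatin against control asks whether cisplatin alone moved these genes. None of the 11 probe sets had arrays that did not overlap, against 3.32% of all probe sets higher and 5.8% lower, and none was called, against 0.0% of all with or without the block. Adjusted p-values by limma were 0.968 to 0.990 over the 11, and 0 of them had an unadjusted p under 0.05 without the block and 1 (VEGFA 210512_s_at) with it, against 761 and 1035 of all probe sets. For VEGFA 210512_s_at cisplatin minus control was 0.14 (95% interval -0.05 to 0.34, adjusted p = 0.968, limma), with 0.20, 0.07 and 0.17 in letters A, B and C. For STC2 203438_at it was 0.12 (95% interval -0.12 to 0.36, adjusted p = 0.968, limma), with 0.30, -0.12 and 0.18 in the letters.

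The combination against nimesulide asks whether cisplatin moved them further in cells that also received nimesulide. Both combination arrays lay above all nimesulide arrays in 2 probe sets, VEGFA 210512_s_at and 212171_x_at, against 8.51% of all, and in none below them, against 13.0%. The margins were narrow. The closest pairs were 5.83 with the combination and 5.82 with nimesulide in 210512_s_at, and 6.71 and 6.70 in 212171_x_at. None was called, against 0.0% of all with or without the block, and adjusted p-values were 0.748 to 0.975 by limma. Of the 11, 0 had an unadjusted p under 0.05 without the block and 1 (VEGFA 210512_s_at) with it, against 1113 and 1554 of all probe sets. For VEGFA 210512_s_at the difference was 0.20 (95% interval -0.02 to 0.42, adjusted p = 0.748, limma), with 0.27 and 0.28 in letters A and B and 0.25 with the block, since the combination lacks letter C. For STC2 203438_at it was -0.13 (95% interval -0.39 to 0.13, adjusted p = 0.88, limma).

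The interaction asks whether the nimesulide difference changed when cisplatin was present. It is the difference between contrasts that chose the genes, so for these genes it is not independent of that choice. None of the 11 was called, against 0.0% of all with or without the block, with adjusted p-values of 0.963 to 0.987 by limma, and 0 had an unadjusted p under 0.05 with or without the block, against 748 of all probe sets without it and 1225 with it. For VEGFA 210512_s_at the interaction was 0.06 (95% interval -0.23 to 0.36, adjusted p = 0.978, limma), and for STC2 203438_at it was -0.25 (95% interval -0.61 to 0.10, adjusted p = 0.963, limma). The intervals are for single probe sets and are not adjusted over all probe sets. Differences inside them remain possible, and larger ones could also go uncalled with this number of arrays.

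**Figure D3:**
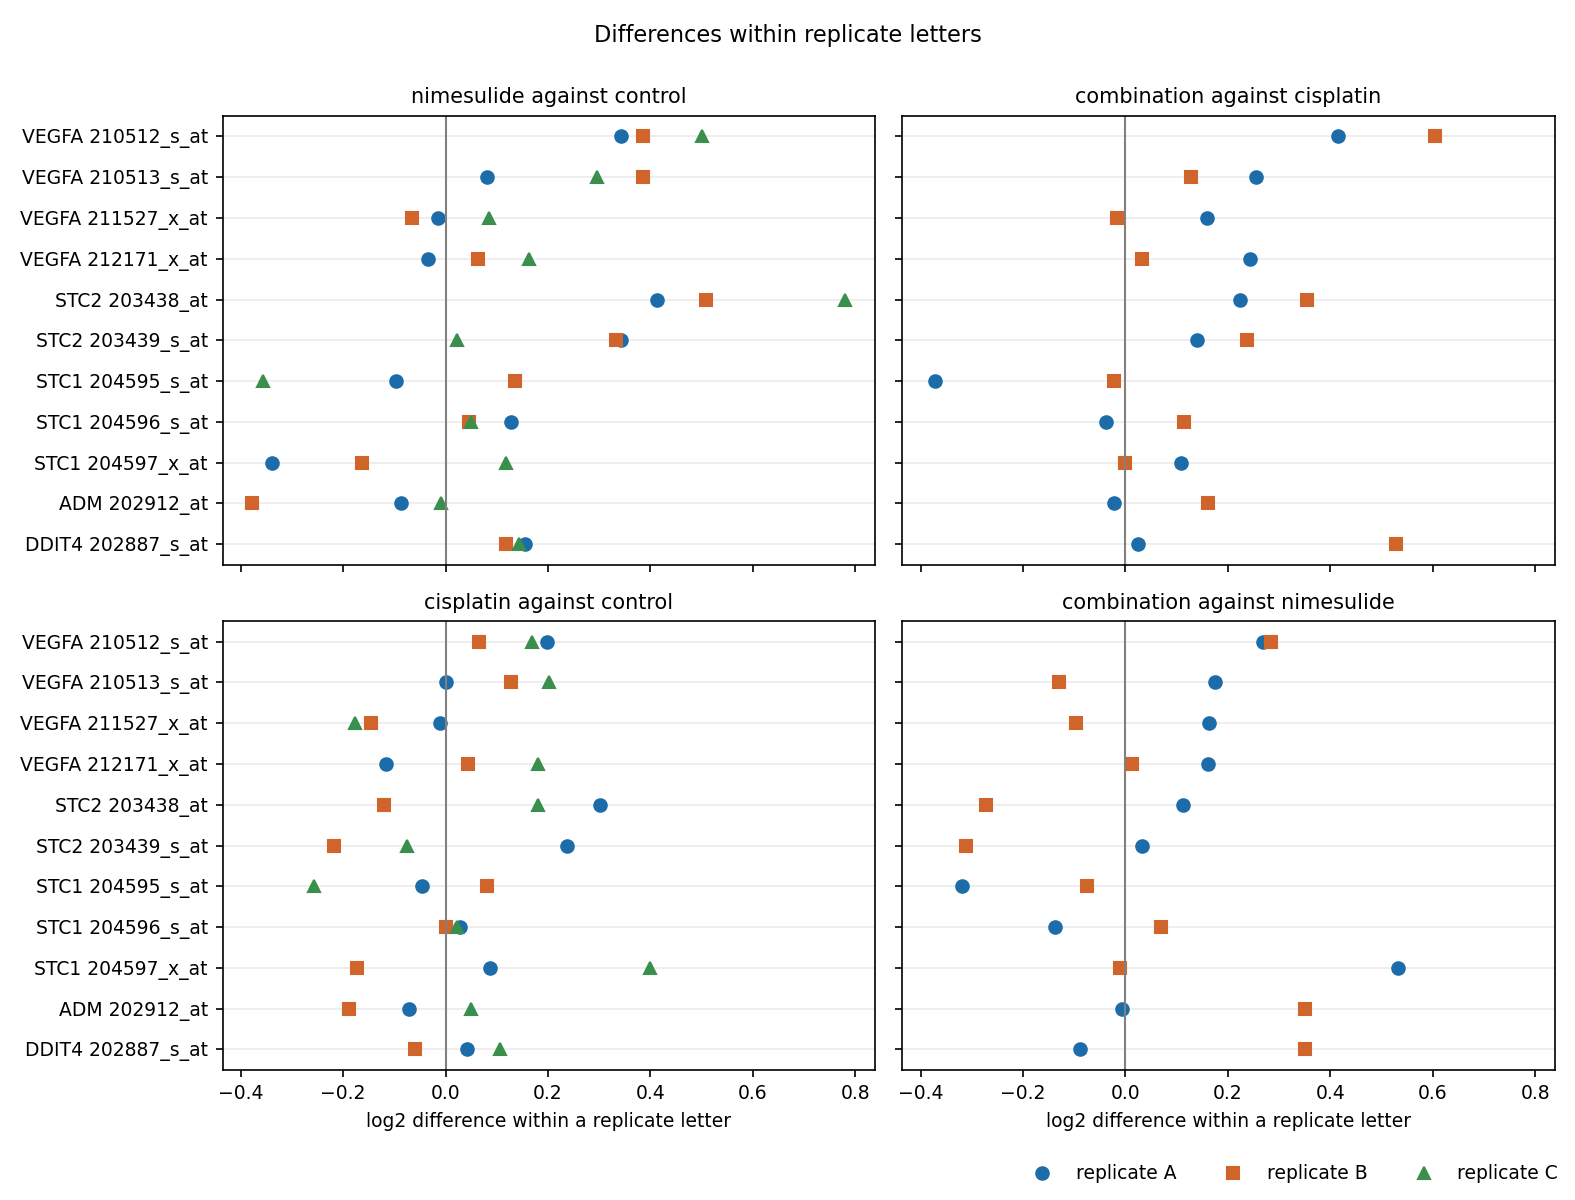
Log2 differences within each replicate letter (x axis) for the 11 probe sets (rows) in 4 comparisons, each symbol being 1 letter. With nimesulide against control, 6 of the 11 lie to the right of 0 in all 3 letters, VEGFA 210512_s_at and STC2 203438_at among them, against 13% of all probe sets. The genes were chosen from nimesulide contrasts and some of these probe sets read the same gene, so this count is a description. With cisplatin against control the symbols of most probe sets spread around 0, and 1 (VEGFA 210512_s_at) lies to the right in all 3 letters, against 10.7% of all.

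The pathways of these genes were followed through lists of other genes, each gene read by its probe set of highest mean. In each list the first value of a gene is nimesulide minus control and the second is the combination minus cisplatin, both as log2 differences, and the median over all 8549 genes was 0.00 in both. No list gene was called by limma without the block in any of the 6 contrasts. With the block, the called list genes were all ATF4 targets. Outside the HIF and ATF4 target lists, unadjusted p-values in nimesulide against control were under 0.05 for 2 of 11 HIF subunits and regulators, 0 of 8 VEGF ligands and receptors, 1 of 6 adrenomedullin receptor genes, 1 of 6 pappalysin axis genes, 1 of 12 PPAR targets, 1 of 8 mTORC1 genes and 1 of 19 angiogenic factors, against 5.43% of all probe sets.

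The HIF targets other than these 6 genes, mostly glycolytic enzymes, glucose carriers and matrix enzymes, had 36 of 45 genes measured. With nimesulide 19 were higher and 17 lower than in controls, with a median of 0.00, and 16 were higher and 20 lower with the combination than with cisplatin, with a median of -0.01. Unadjusted p-values were under 0.05 for 2 of the 36 in each contrast, against 5.43% and 7.09% of all probe sets, and for 6 and 4 with the block, against 7.14% and 10.1% of all. The hexokinase HK2 differed by 0.23 and 0.13, and NDRG1, a stress-induced gene, by 0.18 and 0.14. At the other end the glucose transporter SLC2A1 differed by -0.15 and 0.10, and the aldolase ALDOA by -0.14 and -0.01.

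Of the HIF subunits and regulators, 11 of 17 were measured, 6 higher and 5 lower with nimesulide than in controls, with medians of 0.01 and 0.05. EPAS1, the HIF-2 alpha subunit, differed by 0.25 and 0.28, and the ubiquitin ligase SIAH1 by 0.17 and 0.08. ELOB and CUL2, parts of the ligase that degrades HIF alpha subunits, differed by -0.15 and -0.04 and by -0.07 and 0.05. HIF alpha subunits are regulated largely as proteins, which arrays do not measure.

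The other VEGF ligands and receptors had 8 of 9 genes measured, 3 higher and 5 lower with nimesulide, with medians of -0.02 and -0.05. The receptors FLT4 and FLT1 differed by 0.14 and -0.01 and by 0.09 and -0.06, the co-receptor NRP1 by -0.15 and -0.10, and the ligand VEGFC by -0.09 and -0.09. Among 19 of 22 other secreted angiogenic factors, 9 were higher and 10 lower with nimesulide, with medians of -0.03 and 0.01. HBEGF, a ligand of the EGF receptor, differed by 0.27 and 0.36 and the matrix protein CCN1 by 0.22 and 0.11, against -0.15 and -0.05 for the chemokine CXCL2 and -0.14 and 0.06 for the semaphorin SEMA3A.

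The receptors and partners of the other secreted factors came next. All 6 adrenomedullin and calcitonin receptor genes were measured, with medians of 0.05 and -0.06. RAMP2 and RAMP3, which turn the receptor CALCRL into adrenomedullin receptors, differed by 0.15 and -0.03 and by 0.14 and -0.08, and CALCR, the only one lower with nimesulide, by -0.02 and 0.15. Of the pappalysin axis, the protease that stanniocalcins inhibit with its IGF-binding substrates, 6 of 7 were measured with medians of 0.00 in both contrasts. IGF1 differed by 0.17 and -0.01, IGFBP5 by 0.03 and 0.03, the receptor IGF1R by -0.08 and 0.06, and IGFBP4, a substrate of PAPP-A, by -0.05 and -0.18.

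ANGPTL4 is a PPAR target as well as a HIF target, and 12 of 16 other PPAR targets were measured. With nimesulide 10 were higher and 2 lower than in controls, with medians of 0.02 and 0.03. ACSL1, which activates long-chain fatty acids, differed by 0.36 and 0.17, the lipid droplet protein PLIN2 by 0.10 and 0.03, HADHA of fatty acid oxidation by -0.09 and 0.03, and the acylcarnitine carrier SLC25A20 by 0.00 and -0.07. Of a list of genes around mTORC1, which DDIT4 restrains, 8 of 17 were measured, 4 higher and 4 lower with nimesulide, with medians of 0.00 and -0.03. The list mixes inhibitors of mTORC1, such as TSC1 and TSC2, with its members and effectors, so these counts give no direction for the complex. TXNIP, a thioredoxin inhibitor, differed by -0.25 and -0.48, TSC1 by -0.06 and 0.06, its partner TSC2 by 0.16 and -0.29, and the kinase RPS6KB1 by 0.07 and -0.01.

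The ATF4 targets other than these 6 genes are chiefly enzymes and carriers of amino acid supply. Of 24 measured out of 36, 19 were higher and 5 lower with nimesulide than in controls, with a median of 0.13, and medians of 0.13, 0.15 and 0.19 in letters A, B and C. The combination was higher than cisplatin in 23 and lower in 1, with a median of 0.21, and 0.26 and 0.24 in letters A and B. Over all 8549 genes, 48.8% were higher with nimesulide than in controls and 49% higher with the combination than with cisplatin. Unadjusted p-values by limma were under 0.05 for 9 and 13 of the 24, against 5.43% and 7.09% of all probe sets.

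With the block, PSPH and SLC7A11 were called in nimesulide against control, ASNS, PHGDH and SLC7A11 in the combination against cisplatin, and ASNS, SLC7A11 and the tRNA exporter XPOT in the combination against control. PSPH, the last enzyme of serine synthesis, differed by 0.50 (SE 0.09) and 0.09 (SE 0.10), and SLC7A11 by 0.50 (SE 0.10) and 0.66 (SE 0.11). ASNS differed by 0.40 and 0.57, and PHGDH, the first enzyme of serine synthesis, by 0.17 and 0.44. At the low end the stress factors NUPR1 and ATF5 differed by -0.09 and 0.03 and by -0.08 and -0.19. The list was drawn up with earlier results of these arrays known, so its direction is not independent evidence.

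**Figure D4:**
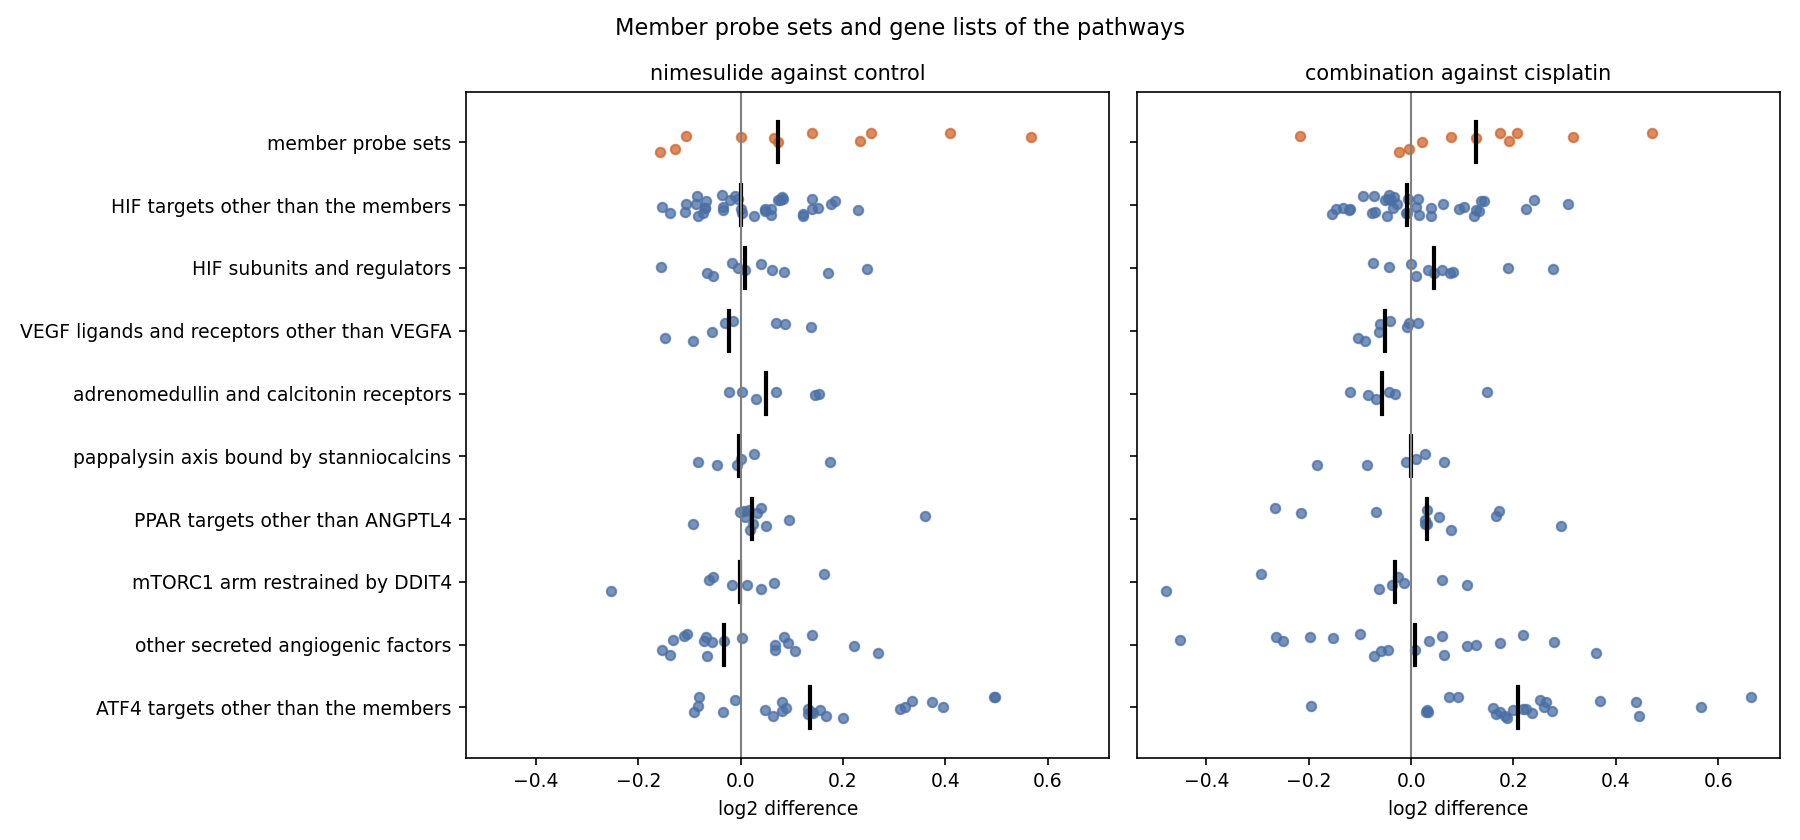
Log2 differences (x axis) of the 11 probe sets and of the genes of 9 pathway lists (rows), for nimesulide against control on the left and the combination against cisplatin on the right, each dot being 1 probe set and the black bar the median. The ATF4 targets have medians of 0.13 and 0.21, while the HIF targets are centred near 0.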

How the data were processed

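Each of the 11 samples of SCC9 RNA was hybridised to 1 Affymetrix U133A array. Per the submitters' processing notes the authors normalised the arrays with RMA, which corrects background, equalises the arrays' distributions and summarises probes. The deposited values are log2 intensities, judged from their range. The RMA version was not given in the sources used here. Such values cannot show a change common to all transcripts. The members and lists were chosen with earlier results of these data known.

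Treatment means over all 11 arrays were fitted to the 16383 probe sets with limma 3.58.1 under R 4.3.3, using lmFit and default eBayes (7 residual degrees of freedom, two-sided tests). The Benjamini-Hochberg adjustment ran over all probe sets in each of 6 contrasts. Intervals are at 95%. The probe set table gave 1 symbol for 14045 probe sets, several for 792 and none for 1546. Old symbols were updated by Entrez ID. The number of arrays limits the precision. The labels do not say that replicates came from separate cultures, so p-values may measure technical spread.

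Same-letter arrays of control and a single agent correlated at 0.135 to 0.355 after removal of treatment means (6 pairs), those of cisplatin and nimesulide at 0.0831 to 0.232 (3 pairs) and those with the combination at 0.0883 to 0.210 (6 pairs). Different letters gave -0.251 to 0.0342 among control, cisplatin and nimesulide (18 pairs) and -0.210 to 0.144 with the combination (12 pairs). Within each treatment the deviations from its mean cancel out, so high same-letter values push the different-letter values down. The gap between them is therefore not independent support. The letters are taken to pair control, cisplatin and nimesulide because their same-letter values were all positive. For the combination, overlap with same-letter pairs lay only in those with nimesulide (different letters up to 0.144, same letters from 0.0883). Different letters reached 0.0140 with control and 0.0134 with cisplatin, below the same letters from 0.0992 and 0.102. The 2 combination arrays deviate from their mean by equal and opposite amounts, so their pairing is less sure. The letter as a block (5 residual degrees of freedom) was an alternative, as were leaving out each array, eBayes with trend and robust, quantile normalisation, median centring and a filter on low probe sets. Every member probe set was described. Beside members, the genes named are the 5 most correlated with each VEGFA and STC2 probe set, list genes called, and in each list the 2 largest positive and 2 largest negative differences in nimesulide against control, or fewer where a list has fewer of that sign. The 13 lists hold 209 genes, 159 of them measured. The fit without the block was also run on simulated data with known shifts in the cisplatin arrays and independent noise between arrays. The fit with the block was not simulated, and no result here rests on the simulation. Analysis used Python 3.11.15, numpy 2.4.6, pandas 2.3.3 and matplotlib 3.10.9.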

Additional observations from a re-analysis of the deposited data

How the results depend on the processing

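The 19 alternatives, the 3 that leave out a letter in the blocked fit being chosen after seeing the data, moved the number of calls. The replicate block gave 37 calls in nimesulide against control, 37 in the combination against cisplatin and 33 in the combination against control, against 1, 0 and 0 without it, and 2, 1 and 1 of the 11 described here, against 0. With letter A, B or C also left out, the numbers were 34, 2 and 1 in nimesulide against control, 37, 2 and 9 in the combination against cisplatin, and 45, 1 and 7 in the combination against control. Of the 11, these held 1 (STC2 203438_at), 0 and 0, then 0, 0 and 0, then 1, 0 and 1 (VEGFA 210512_s_at), which restate contrasts that chose the genes. Without letter A, 2 probe sets were called in the combination against nimesulide and 1 in the interaction, none of the 11. With eBayes trend and robust, 2, 3 and 5 were called in nimesulide against control, the combination against cisplatin and the combination against control, and with quantile normalisation 2 in the combination against cisplatin. Leaving out 1 array at a time gave 0 to 4, 0 to 4 and 0 to 1, and 0 of the 11 throughout. The cause was not tested. In the contrasts tested, 25 of 33 member values changed sign in at least 1 alternative, and none was called under either setting. Cisplatin against control came to 0.0140 for STC2 203439_s_at with median centring. Cisplatin against control came to 0.00602 for STC2 203439_s_at with quantile normalisation. Cisplatin against control came to 0.0806 for STC2 203439_s_at with the block and letter B left out. Cisplatin against control came to -0.0364 for VEGFA 212171_x_at, 0.00958 for STC2 203439_s_at, 0.0179 for STC1 204595_s_at, -0.0432 for STC1 204597_x_at and -0.00879 for DDIT4 202887_s_at with the block and letter C left out. The combination against nimesulide came to 0.00346 for VEGFA 211527_x_at and 0.00155 for STC1 204596_s_at with median centring. The combination against nimesulide came to 0.0101 for VEGFA 211527_x_at and 0.00852 for STC1 204596_s_at with quantile normalisation. The combination against nimesulide came to -0.0874 for VEGFA 210513_s_at, 0.0314 for STC1 204595_s_at, 0.0713 for STC1 204596_s_at and -0.00837 for STC1 204597_x_at with the block and letter A left out. The combination against nimesulide came to 0.10 for VEGFA 211527_x_at, 0.0877 for STC2 203439_s_at, -0.0133 for ADM 202912_at and -0.0734 for DDIT4 202887_s_at with the block and letter B left out. The combination against nimesulide came to 0.0332 for VEGFA 211527_x_at with the block and letter C left out. The interaction came to -0.11 for VEGFA 212171_x_at, 0.12 for STC1 204595_s_at, 0.0603 for STC1 204596_s_at and -0.12 for STC1 204597_x_at with the block and letter A left out. The interaction came to 0.0348 for VEGFA 210513_s_at, 0.00711 for STC2 203439_s_at, -0.00223 for ADM 202912_at and -0.15 for DDIT4 202887_s_at with the block and letter B left out. In the contrasts described without a test, 12 of 33 values changed sign in at least 1 alternative, with ranges over all alternatives as follows. Nimesulide against control ran from -0.0664 to 0.0516 for VEGFA 211527_x_at and -0.23 to 0.0190 for STC1 204595_s_at. The combination against cisplatin ran from -0.0848 to 0.24 for VEGFA 211527_x_at, -0.39 to 0.00855 for STC1 204595_s_at, -0.10 to 0.15 for STC1 204596_s_at, -0.14 to 0.0898 for STC1 204597_x_at and -0.11 to 0.14 for ADM 202912_at. The combination against control ran from -0.20 to 0.14 for VEGFA 211527_x_at, -0.00727 to 0.27 for STC2 203439_s_at, -0.0885 to 0.16 for STC1 204596_s_at, -0.0306 to 0.32 for STC1 204597_x_at and -0.12 to 0.0743 for ADM 202912_at. Leaving out 1 array at a time turned the sign of 21 values in the contrasts tested. In cisplatin against control the ranges were -0.0260 to 0.0880 for VEGFA 212171_x_at, -0.0911 to 0.0347 for STC2 203439_s_at, -0.16 to 0.0390 for STC1 204595_s_at, -0.0222 to 0.0498 for STC1 204596_s_at, -0.16 to 0.0154 for ADM 202912_at and -0.0391 to 0.13 for DDIT4 202887_s_at. In the combination against nimesulide the ranges were -0.11 to 0.17 for VEGFA 210513_s_at, -0.20 to 0.13 for VEGFA 211527_x_at, -0.14 to 0.0348 for STC2 203439_s_at, -0.16 to 0.0900 for STC1 204596_s_at, -0.0716 to 0.17 for ADM 202912_at and -0.0233 to 0.22 for DDIT4 202887_s_at. In the interaction the ranges were -0.0317 to 0.13 for VEGFA 210512_s_at, -0.22 to 0.0568 for VEGFA 210513_s_at, -0.0860 to 0.24 for VEGFA 211527_x_at, -0.00650 to 0.13 for VEGFA 212171_x_at, -0.12 to 0.0535 for STC2 203439_s_at, -0.29 to 0.0628 for STC1 204595_s_at, -0.18 to 0.0735 for STC1 204596_s_at, -0.00170 to 0.24 for ADM 202912_at and -0.0528 to 0.19 for DDIT4 202887_s_at. The filter on low probe sets gave no value for VEGFA 211527_x_at and the STC1 probe sets, which it removes. With 2 or 3 arrays a group, differences inside the printed intervals remain possible, larger ones could also go uncalled, and no array could be tested as an outlier.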
